A study of Mus musculus with 6 samples.

Results

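The clustered protocadherins are the genes of the alpha, beta and gamma arrays on mouse chromosome 18, taken here as every gene whose symbol begins with Pcdha, Pcdhb or Pcdhg followed by a number, a, b or c. Of 49997 genes in the RefSeq gene table of GRCm38.p6, 58 met this rule: 14 of the alpha, 22 of the beta and 22 of the gamma cluster. They lie between positions 36930000 and 37842000 of chromosome 18 (GRCm38). Each cluster was taken from 1000 bp before its first member to the end of its last gene. The alpha cluster thus runs from 36929285 to 37188897, the beta cluster from 37263998 to 37521419 and the gamma cluster from 37660775 to 37841873. The 912.0 kb interval held 354 of the 448072 positions listed in any deposited table. All except the transcribed pseudogene Pcdhgb8 are protein-coding genes in the gene table.

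The assay was reduced representation bisulfite sequencing, in which a digest enriches CpG-rich fragments and bisulfite marks the unmethylated cytosines. The 6 cultured mouse lines, all of the OG2 strain, were 2 independent lines of induced pluripotent stem cells made from germline stem cells (iPSC), 2 of pluripotent stem cells derived from the germline (gPSC), 1 of germline stem cells themselves (GSC) and 1 of embryonic stem cells (ESC). OG2 mice carry a GFP reporter under Pou5f1 regulatory sequence. For every line except ESC, one deposited table lists positions of higher methylation ("hyper") and another those of lower methylation ("hypo") than in a reference library. The tables leave that reference unnamed, and ESC, which has no table of its own, is taken to be it. A listed position has a difference of at least 25 percent points and a q-value of at most 0.01. Coverage and methylation levels are not in the tables, so the depth is unknown, and an unlisted position can be unchanged or unmeasured. Since all differences are from the same library, equal differences in several libraries are not independent of each other.

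Clustered protocadherins are cell adhesion proteins of the cadherin superfamily, known for giving single neurons distinct surface identities. In the alpha and gamma clusters each variable exon has its own promoter and is spliced to constant exons that all members of the cluster share, whereas each beta gene is a single coding exon with no shared constant part. The C-type genes at the end of the alpha and gamma arrays are used more uniformly than the others, and choice among the rest is known to involve CTCF, cohesin and DNA methylation of promoters and exons. Expression was not measured in these data.

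In all 5 libraries most of the listed positions in the interval were hyper, but the gamma exons held many hypo positions and the beta exons few. Over the whole interval, hyper positions numbered 69 in iPSC 1, 110 in iPSC 2, 103 in gPSC 1, 75 in gPSC 2 and 146 in GSC. Hypo positions numbered 18 in iPSC 1, 42 in iPSC 2, 23 in gPSC 1, 15 in gPSC 2 and 45 in GSC. GSC had the most of each kind, and among the iPSC and gPSC lines iPSC 2 had the most. As shares of the 354 positions, the hyper counts were 19.5% in iPSC 1 (26.4% of all positions listed in any table), 31.1% in iPSC 2 (29.4% of all), 29.1% in gPSC 1 (30.1%), 21.2% in gPSC 2 (31.1%) and 41.2% in GSC (47.3%). The hypo counts were 5.08% in iPSC 1 (5.64% of all), 11.9% in iPSC 2 (8.18%), 6.50% in gPSC 1 (6.6%), 4.24% in gPSC 2 (4.57%) and 12.7% in GSC (9.78%). The interval was thus near or below the genome-wide share for hyper positions, slightly above it in iPSC 2 alone.

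The hyper share of listed positions in the interval was 79.3% in iPSC 1 (Wilson 95% interval 69.6 to 86.5), 72.4% in iPSC 2 (64.8 to 78.9), 81.7% in gPSC 1 (74.1 to 87.5), 83.3% in gPSC 2 (74.3 to 89.6) and 76.4% in GSC (69.9 to 81.9). Over the whole tables it was 82.4% in iPSC 1, 78.2% in iPSC 2, 82.0% in gPSC 1, 87.2% in gPSC 2 and 82.9% in GSC. The share was lower in the interval than in the whole table of every library, and only the Wilson interval of GSC left out the whole-table value. Wilson intervals count neighbouring positions as independent, so this one may be too narrow. The mean difference over listed positions of the interval was 22.9 points in iPSC 1, 23.6 in iPSC 2, 37.4 in gPSC 1, 33.7 in gPSC 2 and 33.8 in GSC. The whole-table means were 35.6 in iPSC 1, 34.4 in iPSC 2, 39.5 in gPSC 1, 41.0 in gPSC 2 and 45.3 in GSC, each above the mean of the protocadherin interval in the same library.

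Listed positions lay mostly inside the variable exons, not before them. Each member was given a window of 2400 bp from its start, cut where the next member starts (for the beta genes, the whole gene), which stands for its variable exon, and a further 1000 bp upstream. The exon windows held 234 positions in 162 kb, or 1.44 per kb, and the upstream windows 8 positions in 57.3 kb, or 0.140 per kb. In 27026 other genes of RefSeq's promoter table, the first 2400 bp held 1.38 positions per kb and the 1000 bp upstream 1.51 per kb. The protocadherin exons were therefore listed about as densely as other gene starts, and the sequence before them far less. The remaining 112 positions fell between members, in 693 kb, at 0.162 per kb. In the authors' annotation all 234 exon-window positions carried the label Exon, and 72.2% of them also Promoter, while 98.2% of those between members carried Intron.

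The 8 upstream positions were hyper wherever listed. GSC listed 5 of them, 2 before Pcdha7 (72.7 and 100 points) and 1 each before Pcdhb5 (100), Pcdhb7 (80) and Pcdhb9 (79.7). iPSC 1 listed 2 before Pcdhga11 (30.7 and 26.4), gPSC 1 listed 1 before Pcdha3 (55.6), gPSC 2 listed 1 before Pcdha7 (100), and iPSC 2 listed none. The reads behind these values are not known, and whether upstream sequence was measured elsewhere cannot be read from the tables.

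Within the exon windows the clusters differed in direction. Alpha exons had 4 hyper and 2 hypo positions in iPSC 1, 13 and 4 in iPSC 2, 5 and 3 in gPSC 1, 10 and 1 in gPSC 2, and 12 and 6 in GSC. Beta exons had 19 hyper and 1 hypo in iPSC 1, 15 and 2 in iPSC 2, 12 and 3 in gPSC 1, 11 and 0 in gPSC 2, and 21 and 6 in GSC. Gamma exons had 8 hyper and 14 hypo in iPSC 1, 40 and 28 in iPSC 2, 37 and 16 in gPSC 1, 12 and 12 in gPSC 2, and 48 and 24 in GSC. Hyper positions were the majority in every library in the alpha and beta exons. In the gamma exons they were the minority in iPSC 1 and no majority in gPSC 2. Counting a position once for each library that lists it, hypo entries made up 39.0% of those in the gamma windows, 25% in the alpha windows and 12.9% in the beta windows. Entries of the same position in several libraries are not independent, so these shares are descriptions only. Between members the count was 36 hyper and 1 hypo in iPSC 1, 42 and 8 in iPSC 2, 48 and 1 in gPSC 1, 41 and 2 in gPSC 2, and 60 and 9 in GSC.

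**Figure D1:**
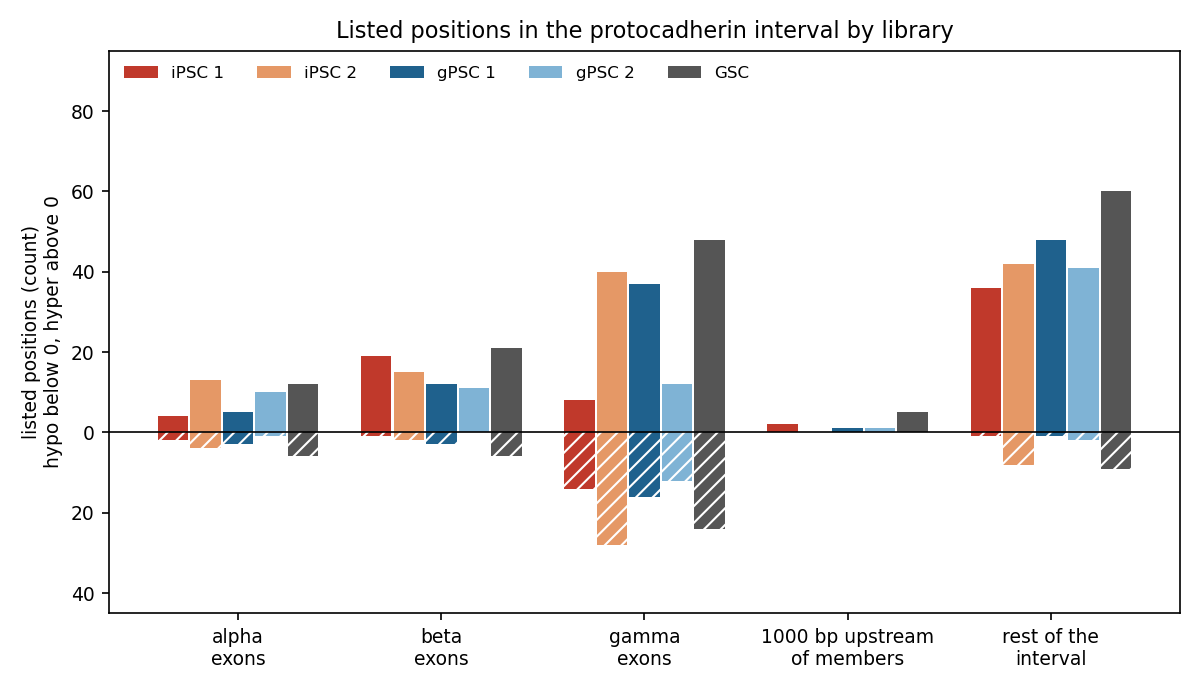
Number of listed positions per library (colours) in the exon windows of each cluster, in the 1000 bp upstream of members and in the rest of the interval. Solid bars above 0 count hyper positions and hatched bars below 0 count hypo positions, and the gamma exons hold the most hypo positions in every library (14 in iPSC 1, 28 in iPSC 2, 16 in gPSC 1, 12 in gPSC 2 and 24 in GSC).

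The hypo entries of the gamma cluster came mainly from its A-type genes. The gamma array interleaves 12 A-type genes and 7 B-type genes, which are sequence subfamilies. Windows of the A-type genes had 99 hyper and 86 hypo entries over the 5 libraries (46.5% hypo), against 42 hyper and 7 hypo entries in the B-type genes (14.3% hypo). These entries are not independent, since a position enters once for each library that lists it. The 8 positions hypo in all 5 libraries lie in A-type windows and enter 5 times each. Shares over distinct positions were not computed. Without Pcdhga9 the A-type share was 40%, with 81 hyper and 54 hypo entries. Gamma exon windows without Pcdhga9 were hyper at 50% of listed positions in iPSC 1, 61.8% in iPSC 2, 75.6% in gPSC 1, 70.6% in gPSC 2 and 70% in GSC. With it they were hyper at 36.4% in iPSC 1, 58.8% in iPSC 2, 69.8% in gPSC 1, 50% in gPSC 2 and 66.7% in GSC. That gene alone therefore decided whether hypo positions were the majority in iPSC 1.

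Of the 58 members, 47 had at least 1 listed position in their window in some library and 37 had 3 or more, 9 of the alpha, 10 of the beta and 18 of the gamma cluster. The 11 with none were Pcdha6, Pcdha11, Pcdhb4, Pcdhb6, Pcdhb8, Pcdhb10, Pcdhb13, Pcdhb18, Pcdhb21, Pcdhgb1 and Pcdhgb5. A member was called in a library when at least 3 of its positions were listed there in the same direction, making up at least 80% of its listed positions. Hyper calls numbered 5 of the 37 members in iPSC 1 (13.5%, against 25.1% of genome tiles of 3400 bp under the same rule), 8 in iPSC 2 (21.6%, against 23.5%), 4 in gPSC 1 (10.8%, against 25%), 3 in gPSC 2 (8.11%, against 31.9%) and 9 in GSC (24.3%, against 44.9%). Hypo calls numbered 2 in iPSC 1 (5.41%, against 1.21% of tiles), 1 in iPSC 2 (2.70%, against 2%), 0 in gPSC 1 (against 1.27%), 1 in gPSC 2 (2.70%, against 0.945%) and 1 in GSC (2.70%, against 2.97%). Tiles, like the 37 members, were counted where they held at least 3 positions listed in any table. Hyper calls were thus rarer among the members than among tiles in iPSC 1, gPSC 1, gPSC 2 and GSC, and near the tile share in iPSC 2. Hypo calls were too few for any such reading. Beta windows take in the whole gene, so members and tiles are not matched in length. With positions of at least 50 points only, hyper calls numbered 0 in iPSC 1, 2 in iPSC 2, 1 in gPSC 1, 0 in gPSC 2 and 4 in GSC. Tile shares under that limit were not computed, so the drop cannot be called particular to the members.

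Over the 5 libraries, 19 of the 37 members (51.4%, against 67% of tiles) were called hyper at least once, 3 alpha, 8 beta and 8 gamma, and 6 of these (16.2%, against 38% of tiles) in 2 or more libraries. Only gamma members were called hypo, namely Pcdhga3 in iPSC 2, Pcdhga5 in iPSC 1, Pcdhga9 in iPSC 1 and gPSC 2, and Pcdhga10 in GSC. No member was called hyper in a library and hypo in another.

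**Figure D2:**
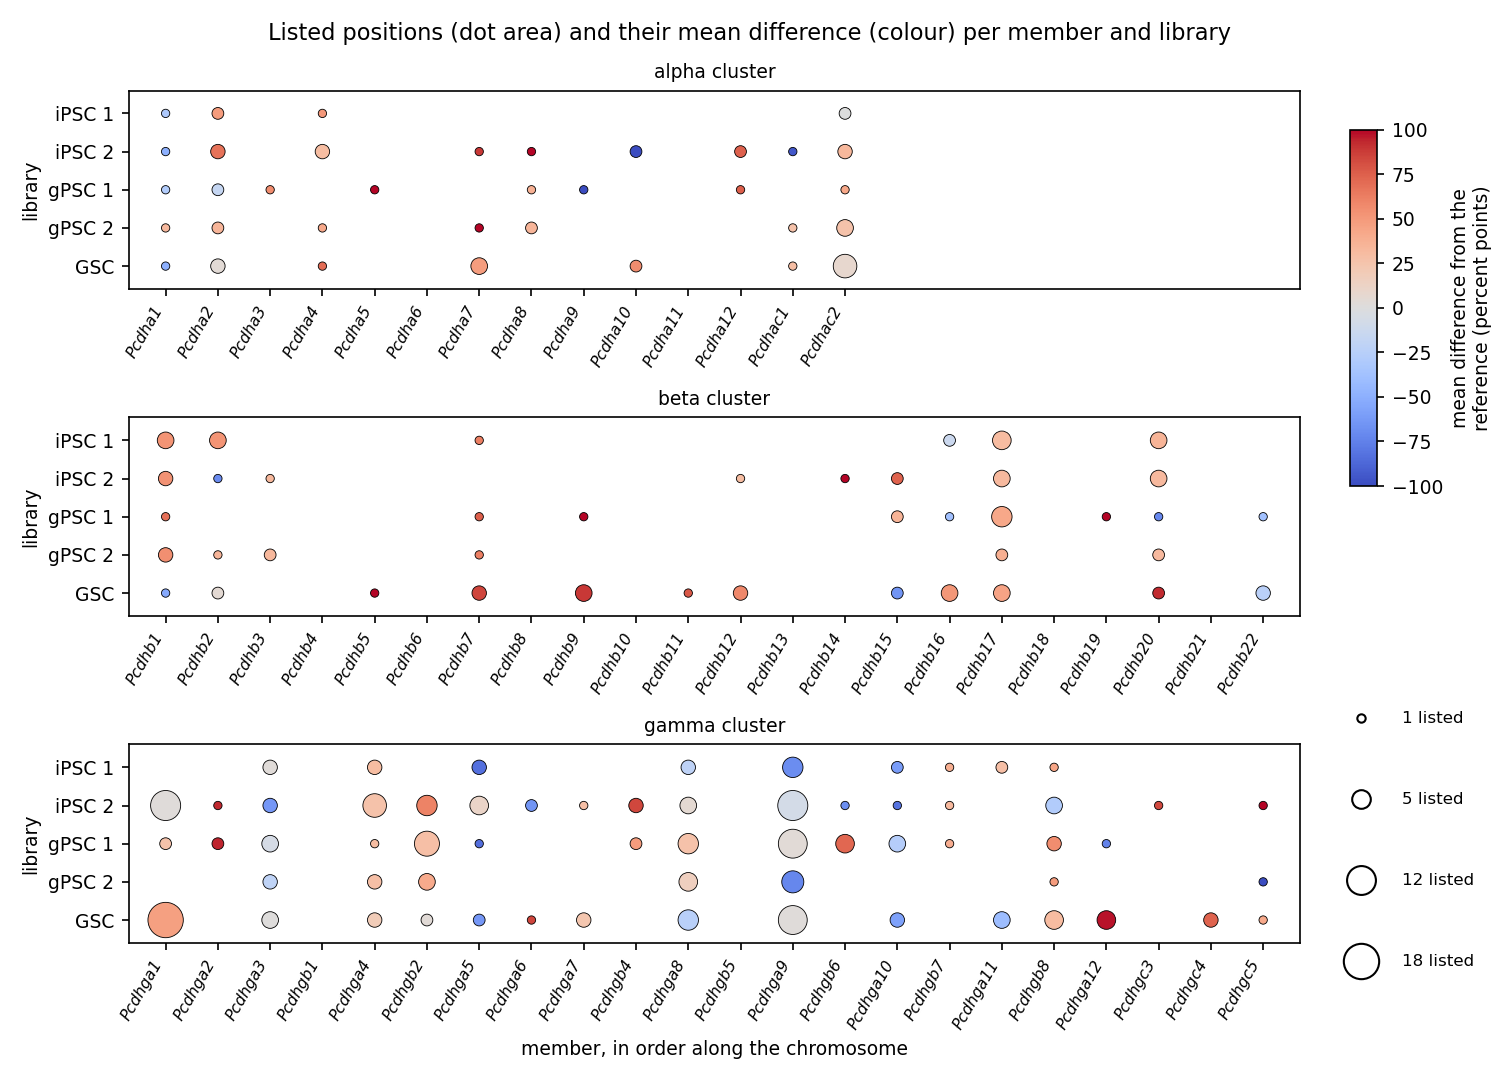
Listed positions per member (columns, in chromosomal order) and library (rows) in the 3 clusters, with dot area for the number listed and colour for their mean difference from the reference in percent points. An empty cell has no listed position, and the largest dot is Pcdhga1 in GSC with 18 positions.

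In the alpha cluster most members had 1 or 2 listed positions in a library. Pcdha2, a variable isoform near the start of the array (chromosome 18, 36939205 to 37187661, variable exon window to 36941604), had 2 hyper positions in iPSC 1, 3 hyper in iPSC 2, 1 hyper and 1 hypo in gPSC 1, 2 hyper in gPSC 2 and 2 hyper and 1 hypo in GSC. Its mean difference was 48.6 points in iPSC 1, 67.8 in iPSC 2, -16.5 in gPSC 1, 35.1 in gPSC 2 and 4.13 in GSC, so the call in iPSC 2 was the only one. A position late in its exon, 36941543, was hyper in 4 libraries, by 32.4 points in iPSC 1, 31.1 in iPSC 2, 41.8 in gPSC 2, with 32.2 in GSC. The next base, 36941544, was hypo in GSC by -47.0 points. Pcdha4 was called hyper in iPSC 2 as well (3 positions, mean 30.1), with 1 hyper position in iPSC 1 (50), gPSC 2 (41.7) and GSC (70) and none in gPSC 1.

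Pcdha1, the first variable isoform of the array, went against the hyper majority of the interval. It had 1 listed position in each library, hypo in iPSC 1 (-30.6), iPSC 2 (-50), gPSC 1 (-28.6) and GSC (-50) and hyper in gPSC 2 (32.2). Pcdha7 had 3 hyper and 1 hypo positions in GSC (mean 48.2), and 1 hyper position in iPSC 2 (88.9) and gPSC 2 (100). Pcdha8 had 1 hyper position in iPSC 2 (100), 1 in gPSC 1 (37.3) and 2 in gPSC 2 (mean 34.8). Neither was called in any library. The other alpha members with positions, Pcdha3, Pcdha5, Pcdha9, Pcdha10 and Pcdha12, were listed in 1 or 2 libraries with 1 or 2 positions each, and of these Pcdha10 had 2 hypo positions in iPSC 2 (-100 each) and 2 hyper positions in GSC (mean 56.0).

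The C-type members were thinly listed except Pcdhac2, the last gene of the alpha array (37143678 to 37187663, variable exon window to 37146077). Pcdhac2 had 1 hyper and 1 hypo position in iPSC 1, 3 hyper in iPSC 2, 1 hyper in gPSC 1, 3 hyper and 1 hypo in gPSC 2, and 5 hyper and 3 hypo in GSC, and was called hyper in iPSC 2 only (mean 33.1). Its differences ran from -30.6 to 34.4 points in GSC, and the farthest from 0 in any library was 58.7 points in gPSC 2 at 37144816. Pcdhac1 had 1 hypo position in iPSC 2 (-94.7) and 1 hyper position in gPSC 2 (26.1) and in GSC (29.1). Pcdhgc4 was listed in GSC only, where its 3 positions were hyper (43.9, 77.3 and 100) and made a call. Pcdhgc3 had 1 hyper position in iPSC 2 (83.3), and Pcdhgc5 had 1 hyper position in iPSC 2 (100) and GSC (41.6) and 1 hypo position in gPSC 2 (-100). Over the 5 C-type exons GSC listed the most positions, 10 hyper and 3 hypo, against 1 hyper and 1 hypo in iPSC 1, 5 and 1 in iPSC 2, 1 and 0 in gPSC 1, and 4 and 2 in gPSC 2.

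In the beta cluster Pcdhb17 (37485021 to 37488290) had the most entries, all hyper except 1 of iPSC 2. It had 5 hyper positions in iPSC 1, 3 hyper and 1 hypo in iPSC 2, 6 hyper in gPSC 1, 2 hyper in gPSC 2 and 4 hyper in GSC. The mean difference was 31.0 points in iPSC 1, 32.8 in iPSC 2, 42.3 in gPSC 1, 39.0 in gPSC 2 and 45.2 in GSC, and the gene was called hyper in iPSC 1, gPSC 1 and GSC. The libraries listed different bases of the exon. Position 37485929, 908 bp from the start, was hyper in 4 of them, by 41.5 points in iPSC 1, 48.5 in iPSC 2, 48.5 in gPSC 1, with 80.7 in GSC, while position 37486241 was hyper in iPSC 2 (33.7), gPSC 1 (56.8) and gPSC 2 (43.7) and not listed in GSC.

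Pcdhb1, the first beta gene (37264998 to 37267454), was hyper in the 4 iPSC and gPSC lines and not in GSC. The 4 hyper positions of iPSC 1 had a mean of 52.5 points, the 3 of iPSC 2 a mean of 53.7, the 1 of gPSC 1 a value of 68.3 and the 3 of gPSC 2 a mean of 55.4, so it was called in all of these lines except gPSC 1. GSC had 1 listed position in the gene, 37266050, hypo by -53.9 points. Position 37266193 was hyper in all 4 lines, by 86.0 (iPSC 1), 68.1 (iPSC 2), 68.3 (gPSC 1) and 91.9 points (gPSC 2), and unlisted in GSC. The lines did not list the base that was hypo in GSC, and 37266049, the base before it, was hyper by 29.3 points in iPSC 2.

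Pcdhb20 (37504264 to 37507660) was called hyper in both iPSC lines and in neither gPSC line. It had 4 hyper positions in iPSC 1 (mean 35.9) and 4 in iPSC 2 (32.6), against 1 hypo position in gPSC 1 (-71.4) and 2 hyper in gPSC 2 (32.1), with 2 hyper in GSC (92.9). Its GSC positions, 37504282 and 37505131, were not listed in any line. The 2 positions of gPSC 2 were hyper in both iPSC lines too. At 37505889 the values were 35.1 in iPSC 1, 30.4 in iPSC 2 and 28.2 in gPSC 2, and at 37505898 they were 37.9, 37.7 and 36. The missing call in gPSC 2 thus rests on the limit of 3 positions. The hypo position of gPSC 1, 37507156, was listed in no other library. Pcdhb2 was called hyper in iPSC 1 (4 positions, mean 52.7) and had 1 hypo position in iPSC 2 (-69.7). It had 1 hyper position in gPSC 2 (34.7), none in gPSC 1, and 1 hyper (80) and 1 hypo (-69.7) in GSC. The hypo position was 37295657 in both iPSC 2 and GSC. Calls in GSC alone were made for Pcdhb7 (3 positions, mean 85), Pcdhb9 (4, mean 88.7), Pcdhb12 (3, mean 58.5) and Pcdhb16 (4, mean 51.1). Pcdhb7 also had 1 hyper position in iPSC 1 (62.0), gPSC 1 (75) and gPSC 2 (62.0). Pcdhb9 had 1 in gPSC 1 (100) and Pcdhb12 had 1 in iPSC 2 (30.5). Pcdhb16 had 1 hyper (74.5) and 1 hypo position (-100) in iPSC 1 and 1 hypo in gPSC 1 (-38.2). Pcdhb9, Pcdhb12 and, below, Pcdhgb4, Pcdhgb6, Pcdhga12 and the pseudogene Pcdhgb8 lie outside the rule for named genes and were picked for their calls.

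A pair of beta positions changed direction between gPSC 1 and GSC. In Pcdhb15, position 37475496 was hyper in gPSC 1 (27.5) and hypo in GSC (-65.5). In Pcdhb16, position 37479773 was hypo in gPSC 1 (-38.2) and hyper in GSC (45.8). The remaining beta members with positions, Pcdhb3, Pcdhb5, Pcdhb11, Pcdhb14, Pcdhb19 and Pcdhb22, had 1 to 3 in a library and no call.

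Pcdhga9, an A-type gamma gene (37736936 to 37841863, variable exon window to 37739335), had more entries than any other member, 50 over 13 positions. Positions here form 6 pairs of adjacent bases between 37737216 and 37737381, 280 to 445 bp from the start of the exon. The second base of each pair was hypo in all 5 libraries, with means over the 6 pairs of -69.3 ± 5.99 points in iPSC 1, -60.6 ± 2.56 in iPSC 2, -60.9 ± 2.68 in gPSC 1, -69.7 ± 2.37 in gPSC 2 and -61.5 ± 6.97 in GSC (SD over positions of the same library, which are not replicates). The first base was hyper in 3 libraries, by 60.6 ± 3.40 in iPSC 2, 67.8 ± 2.82 in gPSC 1 and 65.6 ± 2.85 in GSC, and was not listed in iPSC 1 or gPSC 2. The calls of Pcdhga9 as hypo in iPSC 1 and gPSC 2 thus rest on libraries in which the first bases are missing, and the second bases differed little among the libraries.

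Pcdhga1, the first gamma gene (37661775 to 37841870, variable exon window to 37664174), showed the same arrangement with another outcome. In GSC 18 positions between 37662128 and 37662219 were hyper, with a mean of 46.5 points, and 8 pairs of adjacent bases among them had means of 54.7 ± 5.13 at the first and 36.7 ± 1.85 at the second base. In iPSC 2 the same stretch had 7 hyper and 6 hypo positions, 27.1 ± 1.93 points at 6 first bases and -28.0 ± 1.78 at 6 second bases. gPSC 1 listed 2 first bases, 26.5 and 25.3 points, and iPSC 1 and gPSC 2 listed none. The second base was hypo in iPSC 2 and hyper in GSC at 6 pairs, and these are 6 of the 8 positions in the interval that had both directions in different libraries (2.26% of 354, against 0.487% of all positions).

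**Figure D3:**
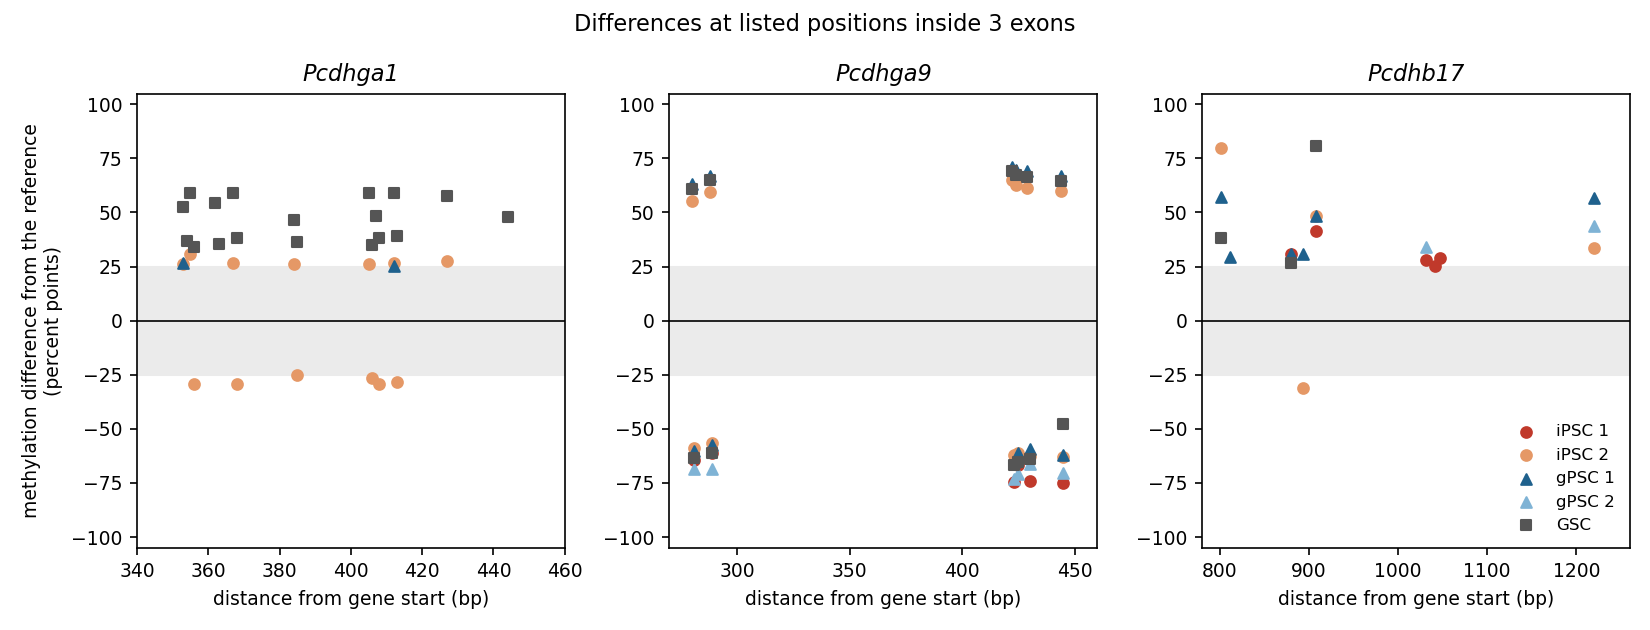
Difference from the reference in percent points at each listed position of Pcdhga1, Pcdhga9 and Pcdhb17, against distance from the gene start in bp, with a colour and shape per library and grey for the range under 25 points that the tables leave out. In Pcdhga9 hyper and hypo positions alternate at adjacent bases, in Pcdhga1 the GSC positions are all hyper, and in Pcdhb17 the points are hyper except 1 of iPSC 2.

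Adjacent bases of opposite direction lay in gamma exons in iPSC 2, gPSC 1 and gPSC 2, and in GSC also in alpha exons, at 4 pairs; no beta exon held one. Of pairs of listed positions 1 bp apart in the interval, 0 of 1 were opposite in iPSC 1, 15 of 15 in iPSC 2, 10 of 12 in gPSC 1, 1 of 2 in gPSC 2 and 14 of 29 in GSC. Over the whole tables opposite pairs made up 83.7% of such pairs in iPSC 1, 87.0% in iPSC 2, 86.7% in gPSC 1, 79.3% in gPSC 2 and 63.3% in GSC, so opposite pairs were common across the tables and not only in these genes. Without positions next to an opposite one, gamma exons were hyper at 36.4% of listed positions in iPSC 1, 65% in iPSC 2, 80% in gPSC 1, 50% in gPSC 2 and 72.2% in GSC. Opposite positions were sought within the same library, so this removed no gamma exon position in iPSC 1 and 2 in gPSC 2. The first bases of Pcdhga9 are unlisted in both, so its second bases stayed, and these 2 shares say nothing on opposite pairs. The tables give every position on the plus strand. The variable exons of a cluster resemble each other in sequence, how reads that match several of them were treated is not given in the sources used here, and its part in these values was not tested.

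Further A-type genes held hypo positions. Pcdhga5 had 3 hypo positions in iPSC 1 669 to 687 bp from its start (-84.6, -80.8 and -84.6 points), which no other library listed, with 3 hyper and 2 hypo in iPSC 2, 1 hypo in gPSC 1 (-83.8), none in gPSC 2 and 2 hypo in GSC (mean -63.8). Pcdhga10 had 2 hypo positions in iPSC 1, 1 in iPSC 2, 3 hypo and 1 hyper in gPSC 1, none in gPSC 2 and 3 hypo in GSC, and its position 37747757 was hypo by -72.0 points in iPSC 1, -82.0 in iPSC 2, -48.6 in gPSC 1, with -82.0 in GSC. Pcdhga3 was called hypo in iPSC 2 (3 positions, mean -63.6) and had 2 hyper and 1 hypo in iPSC 1, 2 and 2 in gPSC 1, 1 and 2 in gPSC 2, and 2 and 2 in GSC. Its position 37674965 was hypo in every library, by -62.1 points in iPSC 1, -65.1 in iPSC 2, -64.2 in gPSC 1, -66.1 in gPSC 2 and -79.0 in GSC. Pcdhga8 was listed in both directions in all 5 libraries, with 1 hyper and 2 hypo in iPSC 1, 2 and 2 in iPSC 2, 4 and 2 in gPSC 1, 3 and 2 in gPSC 2, and 2 and 4 in GSC. In Pcdhga8 position 37726923 was hypo in every library, by -92 points in iPSC 1, -84 in iPSC 2, -85.3 in gPSC 1, -73.7 in gPSC 2 and -68.4 in GSC.

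Pcdhgb2 and Pcdhga4 were each called hyper in 3 of the 4 iPSC and gPSC lines and not in GSC. Pcdhgb2, a B-type gene (37689859 to 37841872, variable exon window to 37692258), had no listed position in iPSC 1, 6 hyper in iPSC 2, 8 hyper and 1 hypo in gPSC 1, 4 hyper in gPSC 2, and 1 hyper and 1 hypo in GSC. It was called hyper in iPSC 2 (mean 60.3), gPSC 1 (28.5) and gPSC 2 (41.3). Pcdhga4 was called in iPSC 1 (3 hyper, mean 30.1), iPSC 2 (7 hyper and 1 hypo, 26.03) and gPSC 2 (3 hyper, 28.9), with 1 hyper position in gPSC 1 and 2 hyper and 1 hypo in GSC. Calls in a single line were those of Pcdhgb4 in iPSC 2 (3 positions, mean 84.0) and Pcdhgb6 in gPSC 1 (5 positions, mean 72.2). Pcdhga12 was called in GSC only, with 5 hyper positions between 87.5 and 100 points, and had 1 hypo position in gPSC 1 (-75). The pseudogene Pcdhgb8 was called hyper in gPSC 1 (3 positions, mean 55.9) and GSC (4 hyper and 1 hypo, mean 30.6) and had 3 hypo positions and 1 hyper in iPSC 2. The remaining gamma members with positions, Pcdhga2, Pcdhga6, Pcdhga7, Pcdhgb7 and Pcdhga11, had at most 4 in a library and no call.

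Positions listed in all 5 libraries separated by place and direction. Of the 354 positions, 208 (58.8%) were listed in 1 library and 22 (6.21%) in all 5, against 52.9% and 7.35% of all positions. Of these 22, 14 were hyper in all 5 libraries (3.95% of 354, against 6.94% of all positions), and all 14 lay between members. The other 8 were hypo in all 5 (2.26%, against 0.401%), and all 8 lay in exon windows of gamma A-type genes, 6 in Pcdhga9, 1 in Pcdhga3 and 1 in Pcdhga8. Each of these 8 had an adjacent base listed hyper in 1 or more libraries. In Pcdhga9, where the 6 lie between 37737217 and 37737381, the base before was hyper in iPSC 2, gPSC 1 and GSC. In Pcdhga3 the base after 37674965 was hyper in GSC (84.6 points). In Pcdhga8 the base before 37726923 was hyper in gPSC 1 (31.4 points). The mean difference of the 14 ranged from 42.0 to 98.7 points with a median of 63.3, and that of the 8 from -61.0 to -80.7 with a median of -65.1. The SD over the 5 libraries at a position had a median of 5.22 points for the 14 and 5.38 for the 8.

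The highest values belong to 37555529, between the beta and gamma clusters, with 97.8 points in iPSC 1, 100 in iPSC 2, 95.8 in gPSC 1, 100 in gPSC 2 and 100 in GSC. The neighbouring listed position, 37555589, had 85.9 in iPSC 1, 84.8 in iPSC 2, 90.3 in gPSC 1, 93.8 in gPSC 2 and 91.5 in GSC. Both differ from the reference by almost the full scale in every library. Both iPSC lines were lower than both gPSC lines at 7 of the 14 positions (50%, against 27.4% of the 31103 positions hyper in all 5 libraries of the whole series) and higher at none (against 8.02%). The widest such gap was at 37543809, with 31.6 points in iPSC 1, 31.6 in iPSC 2, 60.8 in gPSC 1, 87.7 in gPSC 2 and 81.6 in GSC. At 37710163, within the gamma array, iPSC 1 had 26.4, iPSC 2 45.6, gPSC 1 46.3 and gPSC 2 34.4 points, all below the 88.1 of GSC.

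**Figure D4:**
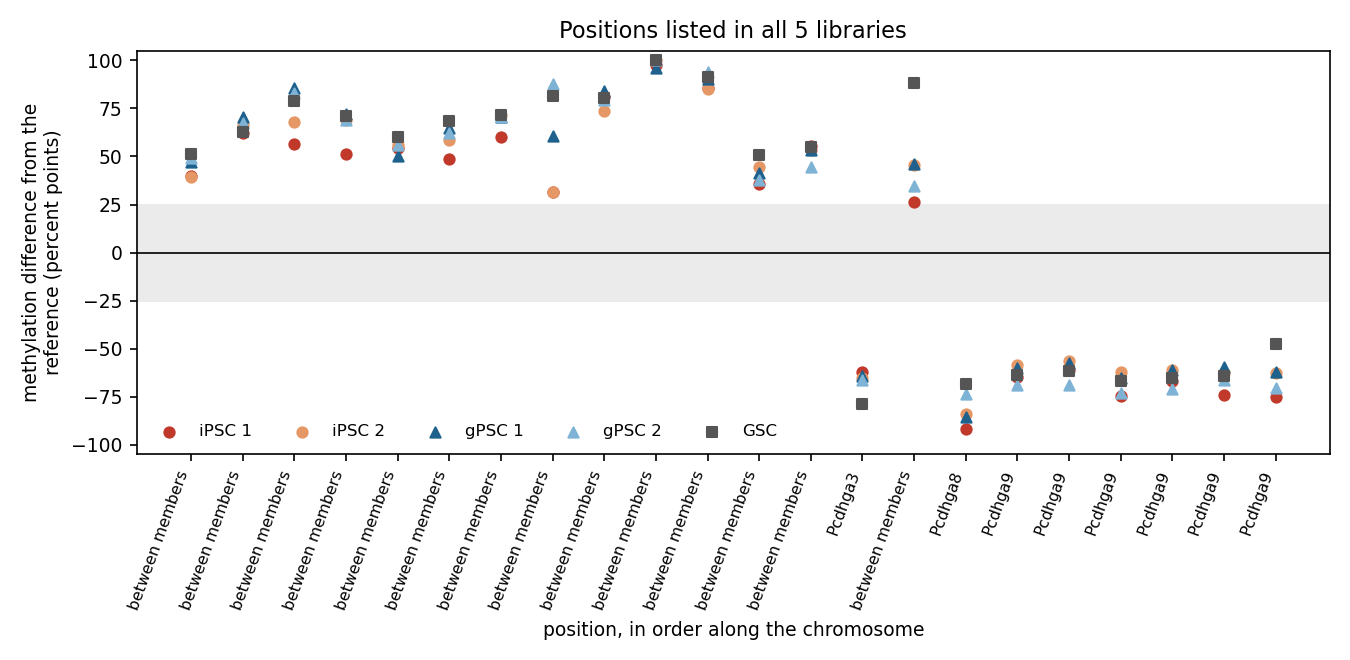
Differences from the reference in percent points at the 22 positions listed in all 5 libraries, in order along the chromosome, labelled by member or as lying between members, with a colour and shape per library and grey for the range under 25 points. The 14 positions between members lie above 25 points and the 8 in Pcdhga3, Pcdhga8 and Pcdhga9 lie below -25 points.

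Of the 112 positions between members, 54 fell into 6 stretches of 5 or more positions and the others lay scattered. The longest list, 26 positions in the 787 bp from 37543606 to 37544392 between the beta and gamma clusters, overlaps no gene of the table apart from the 3 readthrough entries Gm37013, Gm38666 and Gm38667 that span the arrays. Hyper positions there numbered 2 in iPSC 1, 7 in iPSC 2, 10 in gPSC 1, 4 in gPSC 2 and 21 in GSC, and hypo positions 2 in iPSC 2, 2 in gPSC 2 and none in the other libraries. GSC thus listed most of this stretch. Its mean difference was 46.0 points in iPSC 1, 33.9 in iPSC 2, 56.5 in gPSC 1, 25.8 in gPSC 2 and 60.2 in GSC. In contrast, a stretch in the alpha array, 36980330 to 36980458 inside the predicted gene Gm36858, had 6 positions, of which iPSC 1 listed 2, iPSC 2 all 6, gPSC 1 2 and gPSC 2 4, all hyper, and GSC none. At 37045909 to 37046772, also in the alpha array, 5 positions were listed, hyper at 4 in iPSC 1, 2 in iPSC 2, 2 in gPSC 1, 3 in gPSC 2 and 2 in GSC, with 1 hypo position in iPSC 2. At 37073937 to 37074079 all 5 positions were hyper in iPSC 1, iPSC 2 and gPSC 2, against 2 in gPSC 1 and 2 in GSC. Between the beta and gamma clusters, 37565163 to 37565359 had 7 positions, hyper at 3 in iPSC 1, 3 in iPSC 2, 4 in gPSC 1, 2 in gPSC 2 and 6 in GSC, with means between 41.2 and 48.2 points. The 5 positions from 37587693 to 37587846 were listed in gPSC 1 (3), gPSC 2 (2) and GSC (2) at means of 91.9, 92.3 and 92.3 points, and in neither iPSC line.

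The series title raises whether reprogrammed cells keep an epigenetic memory of their origin, and for these genes the iPSC and gPSC lines can be set beside GSC. Of the 146 positions hyper in GSC, those also hyper made up 19.9% in iPSC 1 (Wilson 95% interval 14.2 to 27.1), 32.2% in iPSC 2 (25.2 to 40.1), 37.7% in gPSC 1 (30.2 to 45.8) and 26.03% in the line gPSC 2 (19.6 to 33.7). Over the whole table iPSC 1 had 32.7%, iPSC 2 35.5%, gPSC 1 42.1% and gPSC 2 37.7%. They were lower in the interval in each line, and in iPSC 1 and gPSC 2 the Wilson interval lay wholly below the whole-table share. Wilson intervals count neighbouring positions as independent, however. Of the 146 positions, 18 lie in Pcdhga1, where iPSC 1 and gPSC 2 listed none. Another 21 lie in the stretch from 37543606 to 37544392, with 2 hyper positions in iPSC 1 and 4 in gPSC 2. These intervals therefore cannot decide whether the shares fell short of the whole table. At 66 positions GSC was hyper and no line was listed, and at 25 GSC was hypo and no line was listed. Conversely, 126 positions were hyper in at least 1 line and unlisted in GSC, 2 of them in all 4 lines. Opposite directions in GSC and a line were found at 8 positions, those of Pcdhga1, Pcdhb15 and Pcdhb16. The lines and GSC share the library they were compared with, so these counts are given as descriptions. For the 66, 25, 126 and 2 positions, shares over all listed positions were not computed. They cannot be called particular to these genes.

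Between the iPSC and the gPSC lines no count could be told apart by its test, because 2 lines against 2 cannot give a two-sided exact permutation p below 0.33. The lines are independent per the series' design, and p-values measure only the spread between these lines. The iPSC lines had 89.5 ± 29.0 hyper positions and the gPSC lines 89 ± 19.8 (SD, n = 2 each; exact permutation p = 1, adjusted over 9 tests p = 1). Hypo positions averaged 30 ± 17.0 in iPSC and 19 ± 5.66 in gPSC (exact p = 0.667, adjusted p = 0.75). The hyper difference was below the SD of either kind. The hypo difference of 11 was below the SD of the iPSC lines but above that of the gPSC lines. Both turned round when iPSC 2 was left out, to -20 hyper and -1 hypo positions (iPSC minus gPSC), and the hyper difference was -13.5 without gPSC 2.

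Lines of the 2 kinds did not overlap in 3 of the 9 measures. With 2 lines against 2, a measure fails to overlap with probability 0.33 where the kinds do not differ, so 3 of 9 is no excess. Listed positions had a mean difference of 23.2 ± 0.517 points over the iPSC lines and 35.5 ± 2.59 over the gPSC lines (difference -12.3, exact p = 0.33, adjusted p = 0.75). The whole-table means given above did not overlap between the kinds either, and were also lower in both iPSC lines, so this order was not limited to the protocadherins. Hyper positions in the beta cluster averaged 19.5 ± 2.12 in iPSC and 13.5 ± 0.707 in gPSC (difference 6, exact p = 0.33, adjusted p = 0.75), but with differences of at least 50 points the difference was 1.5 (exact p = 1). Members called hyper averaged 6.5 ± 2.12 in iPSC and 3.5 ± 0.707 in gPSC (difference 3, exact p = 0.33, adjusted p = 0.75). With differences of at least 50 points it was 0.5 (exact p = 1), and without iPSC 2 it was 1.5. Genome tiles called hyper made up 25.1% in iPSC 1 and 23.5% in iPSC 2, against 25% in gPSC 1 and 31.9% in gPSC 2. The value of 0.33 is the smallest the design allows, and none of the 3 passed a threshold of 0.05.

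The other 4 measures overlapped between the kinds. Alpha hyper positions averaged 26.5 ± 7.78 in iPSC and 24.5 ± 6.36 in gPSC, and gamma hyper positions 27 ± 21.2 in iPSC and 30 ± 18.4 in gPSC (exact p = 0.667 and adjusted p = 0.75 for each). The share of GSC hyper positions also hyper averaged 26.03 ± 8.72% in iPSC and 31.8 ± 8.23% in gPSC (exact p = 0.667, adjusted p = 0.75). The hyper share of listed positions minus that of the whole table averaged -4.46 ± 1.97 points in iPSC and -2.06 ± 2.52 in gPSC (exact p = 0.667, adjusted p = 0.75). At single positions, 16 were hyper and 9 hypo in both iPSC and both gPSC lines, 3 were hyper in both iPSC lines and unlisted in both gPSC lines, and 8 were hyper in both gPSC lines and unlisted in both iPSC lines. No position was opposite in the iPSC pair and the gPSC pair. Shares over all listed positions were not computed for these counts, so they cannot be called particular to these genes. Single lines decided the sign of several of these differences (iPSC minus gPSC): the alpha one was -3.5 without iPSC 2 and -2.5 without gPSC 1, the gamma one 12 without iPSC 1 and 10 without gPSC 1, and the share also hyper 0.342 points without iPSC 1.

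The protocadherins outside the clusters share the cadherin repeats but stand as separate genes. They were called hyper far more often than hypo, and so were all genes assessed alike. Of 12 listed, 11 had 3 or more listed positions within 2000 bp of the gene, and hyper calls were made for 4 in iPSC 1 (36.4%, against 30.7% of 22780 genes assessed alike), 6 in iPSC 2 (54.5%, against 30.4%), 5 in gPSC 1 (45.5%, against 33.8%), 7 in gPSC 2 (63.6%, against 40.2%) and 5 in GSC (45.5%, against 46.1%). Hypo calls were made for Pcdh10 in iPSC 2 (10 hypo positions, mean -54.9; 1 of 11, against 2.62% of genes), and for none in iPSC 1 (2.13% of genes), gPSC 1 (1.73%), gPSC 2 (1.47%) or GSC (3.32%). Pcdh11x, Pcdh15 and Pcdh9 were called hyper in all 5 libraries. Pcdh15, the protocadherin of inner ear hair cell tip links, had 30 hyper positions in iPSC 1, 36 in iPSC 2, 37 in gPSC 1, 32 in gPSC 2 and 61 in GSC. These are long genes, and a long gene has more positions that can be listed.

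Among 20 factors known to act on the clusters, 19 had 3 or more positions. Hyper calls were made for 6 in iPSC 1 (31.6%), 7 in iPSC 2 (36.8%), 5 in gPSC 1 (26.3%), 8 in gPSC 2 (42.1%) and 6 in GSC (31.6%), against the gene shares just given. Ctcf, whose protein binds the protocadherin promoters, was called hyper in the 4 lines, where iPSC 1 listed 4 positions, iPSC 2 listed 3, gPSC 1 listed 6 and gPSC 2 listed 5, all hyper, and it had 9 hyper and 6 hypo positions in GSC. Smchd1, a known silencer of the clusters, was called hyper in iPSC 1 (12 hyper and 1 hypo), iPSC 2 (13 and 1) and gPSC 2 (10 and 0), with 4 and 3 in gPSC 1 and 19 and 28 in GSC. Dnmt3b, a DNA methyltransferase known to act on promoters of these clusters, was called in GSC only (5 hyper, mean 78.5), while in the lines it had both directions, such as 11 hyper and 8 hypo in iPSC 1. Zfp143 was called hypo in iPSC 2 (9 hypo and 1 hyper, mean -41.3), the only hypo call of the list.

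Of 58 genes in the interval or within 500000 bp of it, 37 had 3 or more positions, and hyper calls were made for 9 in iPSC 1 (24.3%), 9 in iPSC 2 (24.3%), 4 in gPSC 1 (10.8%), 10 in gPSC 2 (27.0%) and 10 in GSC (27.0%). Hypo calls were made for 1 in iPSC 2 and 1 in GSC. The hyper shares were below those of all genes in each library. Some of these neighbours lie inside the arrays and share positions with members, such as Gm20162, whose 3 GSC positions are those of Pcdhb12.

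The labelled cell types were checked only by methylation near marker genes, since no expression is given. Of 5 germline markers, hyper calls were made for 4 in iPSC 1, 3 in iPSC 2, 3 in gPSC 1, 2 in gPSC 2 and 0 in GSC. Of 5 pluripotency markers, they were made for 0 in iPSC 1, 1 in iPSC 2, 2 in gPSC 1, 0 in gPSC 2 and 2 in GSC. Of 4 fibroblast markers they were made for 3 in iPSC 1, 1 in iPSC 2, 1 in gPSC 1, 2 in gPSC 2 and 3 in GSC, and of 2 Sertoli cell markers for 1 in GSC alone. Hypo calls were made for Tdgf1, a pluripotency marker, in iPSC 2 and for Ddx4, a germline marker, in gPSC 2. Over all genes, hyper calls made up 30.7% in iPSC 1, 30.4% in iPSC 2, 33.8% in gPSC 1, 40.2% in gPSC 2 and 46.1% in GSC, and lists of 2 to 5 genes are too short to be read against them. The part of other cells in the values of the protocadherins was not tested.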

How the data were processed

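Genomic DNA of 6 lines was analysed by reduced representation bisulfite sequencing, per the labels. The submitters' processing notes name, with neither role nor version, the tools methylKit, Bismark, Bowtie2 and GATK and the genome builds GRCm38 and mm10. Not given in the sources used here: settings, coverage minimums and the treatment of reads with several matches. The deposited tables give for each called position a p-value, a q-value and a methylation difference in percent points, all computed by the authors. Tested on the files, all differences were at least 25 points and all q-values at most 0.01. Replicate lines have separate tables, and the 5 libraries have 10 tables. The depth is unknown, so no interval for a position can be given, and Wilson intervals of shares cover counting error only.

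Member windows were taken from the RefSeq gene table of GRCm38.p6, with the clusters read on the plus strand. A member was called at 3 or more positions of a direction making 80% of its listed positions. The same rule was applied to 46886 tiles of 3400 bp and to 22780 genes with 2000 bp on each side. Two-sided exact permutation tests compared 2 iPSC with 2 gPSC lines, and p-values were adjusted over 9 tests by Benjamini-Hochberg. GSC is 1 line and entered no test. The members named in full are, per cluster, the 6 with the most entries, all C-type members and all members called hypo or in opposite directions, 24 in all. Ties went to the gene earlier in the array. Members and lists were chosen with earlier results of these data known. The alternatives were other difference, q, window and call limits, leaving out positions next to opposite ones, counting adjacent positions once, a replicate block, leaving out each line, and leaving out Pcdhga9. The calculations used Python 3.11.15, pandas 2.3.3, numpy 2.4.6 and scipy 1.17.1 and were tested on simulated data. No sequence is printed.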

Additional observations from a re-analysis of the deposited data

Results flagged for a closer look

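The mean difference of Pcdhb1 was positive in every iPSC and gPSC line (iPSC 1 52.5 points, iPSC 2 53.7, gPSC 1 68.3, gPSC 2 55.4) and negative in GSC (-53.9), so all lines lay on the other side of 0 from GSC. The mean over the 4 lines minus the GSC value was 111.4 points. This difference was not tested, since GSC is 1 library, and the GSC value rests on 1 position that no line lists.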

How the results depend on the processing

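Of 99 alternative values of the 9 differences between iPSC and gPSC lines, 87 kept their direction or came to 0 and 12 turned round. Among the 87 are 9 of the replicate block, which could not turn because the block leaves the difference unchanged. The design allows no p below 0.33, so p-values say nothing on this dependence. The difference in hyper positions (iPSC minus gPSC, 0.5 as reported) was -8 with differences of at least 50 points, -5.5 with q at most 0.001, -1.5 without positions 1 bp from an opposite one and -3.5 without those within 50 bp of one. Leaving out 1 line, it ranged from -20 to 21, that in hypo positions from -1 to 23, the share of GSC hyper positions from -12.0 to 0.342 points, alpha hyper positions from -3.5 to 7.5 and gamma hyper positions from -18 to 12. In these fits the lone line is set beside a pair. The labels give the replicate number as a line number and state no pairing. Deviations of lines with the same number correlated at 0.116 over 38872 positions and at -0.389 over 25 in the clusters. Whether lines of the same number share an effect was not tested, and these values cannot decide it. The replicate block leaves each difference as it was and changes only its p, with a smallest possible value of 0.5.

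Calls of members, 34 in all as reported over the 5 libraries, were 12 with differences of at least 50 points (hyper 0 in iPSC 1, 2 in iPSC 2, 1 in gPSC 1, 0 in gPSC 2, 4 in GSC), 10 with at least 5 positions (hyper 1 in iPSC 1, 2 in iPSC 2, 0 in gPSC 2, 2 in GSC, hypo 1 in iPSC 1, 0 in iPSC 2 and 0 in GSC) and 54 with at least 2 (hyper 8 in gPSC 1 and 8 in gPSC 2, hypo 3 in iPSC 2 and 3 in GSC). With a share of 60%, hyper calls were 5 in gPSC 2 and hypo calls 2 in iPSC 2, 1 in gPSC 1 and 3 in GSC. With q at most 0.001, hyper calls were 5 in iPSC 2 and 1 in gPSC 2. With an exon window of 1500 bp, gPSC 1 had 2 hyper calls. Without positions within 50 bp of an opposite one, GSC had 2 hypo calls. Without the Pcdhga9 window, an alternative chosen after seeing the data, hypo calls were 1 in iPSC 1 and 0 in gPSC 2. Tile shares under these alternatives were not computed, so the changes in calls cannot be called particular to the members. Counts lost under stricter limits follow from fewer positions, and the cause of the turned signs was not tested. Without coverage, unlisted and unmeasured positions cannot be told apart.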
